A study of Mus musculus with 24 samples.

Results

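The genes of neuregulin and epidermal growth factor (EGF) signalling were examined in optogenetically exercised muscle: the ligands Nrg1, Hbegf, Areg, Ereg, Tgfa, and Btc, the receptors Egfr, Erbb2, and Erbb3, and the receptor inhibitor Errfi1. These 10 genes were taken by name from the 56941 genes of the count table and of the table of transcript levels per 1000000 transcripts (TPM). Nrg1 was chosen because it was higher at 1 and 4 Hz in these same libraries, so its values are given as a description with no test, whereas the other 9 genes were tested. Their RNA was sequenced from flat muscle tissues grown from C2C12, mouse myoblasts of an established line that form contractile fibers in culture. In all 24 tissues the cells carried channelrhodopsin fused to a red fluorescent protein (ChR2::tdTomato), an ion channel that lets blue light trigger contraction. Tissues received 30 min of light each day at 1, 4, or 10 Hz or were kept without stimulation as control, with 6 libraries per condition, all of them differentiated in horse serum medium with IGF-1. Control tissues in this model also twitch spontaneously, and they are the product of a single cell line with no nerve.

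ErbB receptors are tyrosine kinases that pair with each other once a ligand binds. Amphiregulin (Areg) and TGF-alpha (Tgfa) bind Egfr, betacellulin (Btc), epiregulin (Ereg), and heparin-binding EGF (Hbegf) bind Egfr and ErbB4, and neuregulin 1 (Nrg1) binds ErbB3 and ErbB4. Erbb2 binds no known ligand and Erbb3 has little kinase activity, so these receptors signal as partners. The ligands are made as membrane-bound precursors that ADAM proteases cut free, and Errfi1 (also known as MIG-6) is a feedback inhibitor of the receptor kinases. In muscle, neuregulin is best known from the neuromuscular junction and muscle spindle, and ErbB signalling has been tied to myoblast survival and glucose uptake.

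Total counts were 4.09 to 15.2 M per library, where M stands for mega. They were 4.19 to 7.65 M in control, 4.09 to 15.2 M at 1 Hz, 7.55 to 11.5 M at 4 Hz, and 5.41 to 12.1 M at 10 Hz. Depth thus differed between conditions, with control and 4 Hz nearly apart. The libraries also differed in another technical property that ran with the conditions. The labels say that RNA was selected by poly(A) tail but that samples of low input were depleted of ribosomal RNA instead, without naming them, and 25 non-polyadenylated small RNAs were therefore summed in each library. They made up 96.6 to 168 counts per 1000000 (CPM) in control, 14.6 to 69.6 CPM at 1 Hz, 18.5 to 50.0 CPM at 4 Hz, and 37.1 to 265 CPM at 10 Hz, so that every 1 and 4 Hz library lay below every control library. Few of the 25 weighed in these sums, and only 5 had enough counts to be tested. Rn7sk and Rn7s1 had the highest medians over the 24 libraries, at 24.4 and 11.3 CPM. Rn7s1 was at 0 in 6 libraries, and Rn7s2 was at 0 in 14 but reached 637 counts. The labels gave no batch, and library preparation and stimulation at 1 and 4 Hz cannot be told apart by the small RNA share. In a fit with this share as a covariate, 1 of 13318 genes was counted at 1 Hz, 232 at 4 Hz, 182 for 10 Hz against 1 Hz, and 0 by edgeR for 10 Hz against 4 Hz, so a call lost in that fit is not particular to a gene. The tissue carried muscle transcripts throughout. The summed level of 7 muscle fiber markers was 7016 to 8947 CPM in control, 10216 to 13931 CPM at 1 Hz, 10737 to 16447 CPM at 4 Hz, and 7675 to 11349 CPM at 10 Hz. Of the 7, 3, 4, and 2 were counted as higher than control, against 9.34%, 10.5%, and 1.24% of all genes. Acta1 and Mylpf, with medians of 3809 and 2027 CPM over the 24 libraries, weighed most in the sums, and Ckm, at 74.5 CPM, least. Of 5 markers of cycling or undifferentiated myoblasts, whose sums were 22.8 to 47.5 CPM in control and 23.0 to 48.0 CPM at 4 Hz, 3 were higher and 1 lower at 4 Hz. Over all genes 10.5% were higher and 9.61% lower there. Schwann cell markers, a cell type known for Erbb3, summed to at most 3.93 CPM in any library, with no single one above 23 counts. In bulk tissue, fewer cells of a type and less RNA per cell cannot be told apart.

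All 10 genes passed the filter on low counts. Per unit of transcript length, Errfi1 was the most abundant, with a median of 84.6 TPM over the 24 libraries, followed by Hbegf at 62.0 TPM, Areg at 45.6 TPM, and Ereg at 31.9 TPM. The receptors Erbb2 and Erbb3 followed at 13.4 and 11.8 TPM, ahead of Nrg1 at 6.06 TPM and Egfr at 4.34 TPM. Btc at 2.15 TPM and Tgfa at 0.429 TPM were the lowest. In this order the ranges over the 24 libraries of neighbouring genes overlapped at every step but that from Ereg, which was 18.3 TPM or more, to Erbb2, which was 17.3 TPM or less. Counts per library were 2 to 20 for Tgfa and 14 to 140 for Btc. The highest TPM of Tgfa, 2.41 in 1 Hz replicate 6, stood on 11 counts (1.17 CPM). The fourth ErbB receptor, Erbb4, and the neuregulins Nrg2, Nrg3, and Nrg4 had at most 1, 3, 1, and 2 counts in any library and could not be tested. A library at 0 allows a level of up to 0.197 to 0.734 CPM, depending on its depth.

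**Figure D1:**
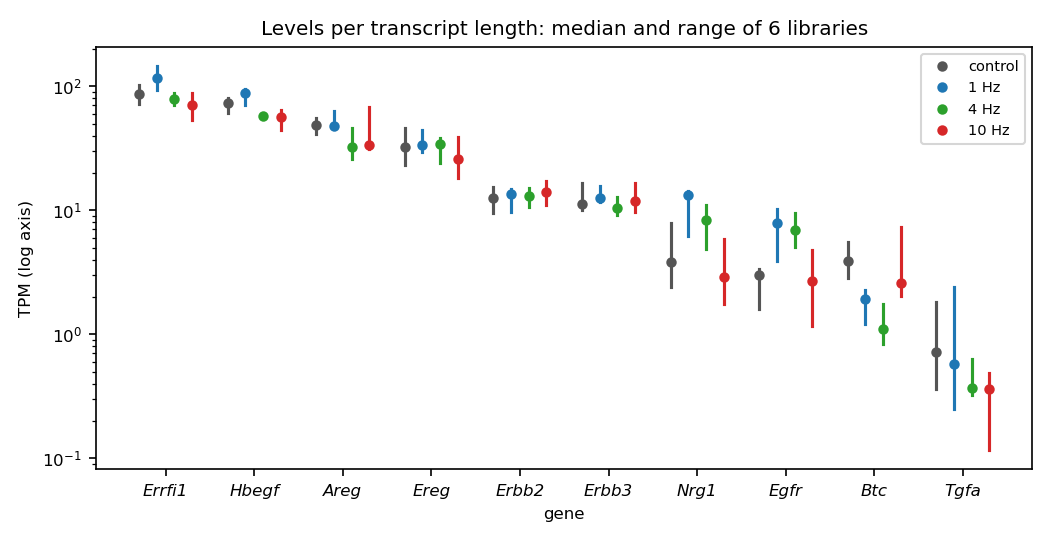
Level of each gene in TPM (log axis), with the median (point) and the range (line) of 6 libraries for control, 1, 4, and 10 Hz. Errfi1, with a median of 84.6 TPM over all libraries, and Hbegf, with 62.0 TPM, were the 2 most abundant genes in every condition, and Tgfa, with 0.429 TPM, was the least abundant.

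The genes lie on 7 chromosomes of GRCm39, and 3 of the ligands are neighbours on chromosome 5 (Ereg at 91222157 to 91241505, Areg at 91287451 to 91296291, and Btc at 91505120 to 91550883). Start regions of 300 bases, from 250 bases before to 50 after the start site, were available for 6 of the 10 genes (RefSeq, build GRCm38.p6, whose coordinates differ from those above). Per the GRCm39 annotation, exons of Nrg1, Hbegf, Ereg, Tgfa, and Errfi1 overlap those of predicted antisense genes, while the strand setting of the counting was not stated. The start regions were searched on both strands for 6 motifs of regulators tied to activity or muscle. The cAMP response element TGACGTCA, found in 1.79% of 32851 promoters of the same length, was in the start regions of Areg (positions -61 to -54 from the start site) and Errfi1 (positions -51 to -44), in the latter in 1 of the 2 start regions given for the gene. The AP-1 motif TGANTCA (7.81% of promoters), the EGR motif GCGNGGGCG (5.55%), the CArG box (1.63%), and the MEF2 motif (3.19%) were in none of the 6, and the E-box CAGCTG (16.3%) was in Areg and Btc. No match overlapped another, and Egfr, Erbb2, and Tgfa held none of the 6 motifs. The start regions of Areg and Errfi1 are printed because they share the cAMP response element, shown in capitals, and those of Egfr and Btc because these genes changed most among the tested ones. They are chr5:91139349-91139648 (plus strand) for Areg, chr4:150854820-150855119 (plus strand) for Errfi1, chr11:16751953-16752252 (plus strand) for Egfr, and chr5:91402945-91403244 (minus strand) for Btc, each written 5′ to 3′.
Areg: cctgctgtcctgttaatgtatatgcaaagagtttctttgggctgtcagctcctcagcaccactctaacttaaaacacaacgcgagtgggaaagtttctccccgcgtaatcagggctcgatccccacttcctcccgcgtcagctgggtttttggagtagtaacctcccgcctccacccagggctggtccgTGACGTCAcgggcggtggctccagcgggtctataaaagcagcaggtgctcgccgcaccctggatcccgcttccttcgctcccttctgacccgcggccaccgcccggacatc
Errfi1: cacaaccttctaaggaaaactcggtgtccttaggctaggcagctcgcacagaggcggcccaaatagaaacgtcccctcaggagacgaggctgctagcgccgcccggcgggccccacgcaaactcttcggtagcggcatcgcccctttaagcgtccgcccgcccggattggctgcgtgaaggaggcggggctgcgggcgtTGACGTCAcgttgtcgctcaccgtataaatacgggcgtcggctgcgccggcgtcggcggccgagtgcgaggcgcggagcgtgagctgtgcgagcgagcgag
Egfr: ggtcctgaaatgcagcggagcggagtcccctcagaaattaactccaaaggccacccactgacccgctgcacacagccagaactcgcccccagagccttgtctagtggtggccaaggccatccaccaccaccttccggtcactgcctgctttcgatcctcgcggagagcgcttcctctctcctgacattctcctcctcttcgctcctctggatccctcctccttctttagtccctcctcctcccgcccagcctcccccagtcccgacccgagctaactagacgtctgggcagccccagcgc
Btc: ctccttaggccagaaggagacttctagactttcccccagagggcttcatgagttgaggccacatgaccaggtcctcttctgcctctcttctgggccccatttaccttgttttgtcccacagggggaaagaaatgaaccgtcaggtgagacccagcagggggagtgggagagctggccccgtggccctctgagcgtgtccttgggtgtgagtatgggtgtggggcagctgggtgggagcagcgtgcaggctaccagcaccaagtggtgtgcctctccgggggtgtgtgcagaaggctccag

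Of the genes that share the element, Errfi1 was counted as higher at 1 Hz than in control and Areg was not, although the difference between them was not itself tested. The matches are a description of letters, and binding was not measured.

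Nrg1 (ENSMUSG00000062991) is the neuregulin ligand of Erbb3. In control it was 4.13 CPM in the lowest, 5.66 CPM in the median, and 8.58 CPM in the highest library. At 1 Hz it was 11.4, 24.4, and 28.5 CPM, and at 4 Hz 11.3, 18.0, and 22.3 CPM. Every 1 and 4 Hz library was above every control library, which is the pattern it was chosen for. At 10 Hz the values were 4.07, 4.76, and 8.96 CPM, which overlapped control and lay below every 1 and 4 Hz library. The fitted log2 fold change against control was 2.00 ± 0.22 (SE) at 1 Hz, 1.61 ± 0.22 at 4 Hz, and -0.09 ± 0.24 at 10 Hz. Between frequencies it was -0.38 ± 0.19 for 4 Hz against 1 Hz, with overlapping libraries, -2.09 ± 0.21 for 10 Hz against 1 Hz, and -1.70 ± 0.21 for 10 Hz against 4 Hz. With the small RNA share as covariate, the differences against control were 1.16 ± 0.31 at 1 Hz and 0.83 ± 0.30 at 4 Hz. The lowest 1 Hz library, replicate 1, also had the highest small RNA share of its group (69.6 CPM), and without it the value at 1 Hz was 2.13. By contrast, the highest control library, replicate 6, had the highest small RNA share of its group (168 CPM).

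Nrg1 spans 1070.9 kb on the minus strand of chromosome 8 (GRCm39, 32303906 to 33374825), and the annotation gives it 40 transcripts from 35 start sites. The ratio of its estimated counts to TPM, which reflects the transcript length assigned by salmon, varied 3.26-fold between libraries, against a median of 1.26-fold over 10942 genes. It was lowest in control replicate 2, at 0.423 of the median library. The TPM of that library was the highest of the control group, at 7.87, and the lowest control library had 2.42 TPM. On the TPM scale the medians were 3.81 in control, 13.3 at 1 Hz, 8.36 at 4 Hz, and 2.91 at 10 Hz, but the groups then overlapped. Control replicates 2 and 6, at 7.87 and 5.90 TPM, were above the lowest 4 Hz library, at 4.88 TPM, and control replicate 2 was also above the lowest 1 Hz library, at 6.22 TPM. Which isoforms were present could not be read from these gene-level tables. The ratio varied 6.82-fold for Tgfa, 2.77-fold for Egfr, and 1.55-fold for Btc, so the TPM of these genes share this limit, and by no more than 1.03-fold for Hbegf, Areg, Ereg, and Erbb3.

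**Figure D2:**
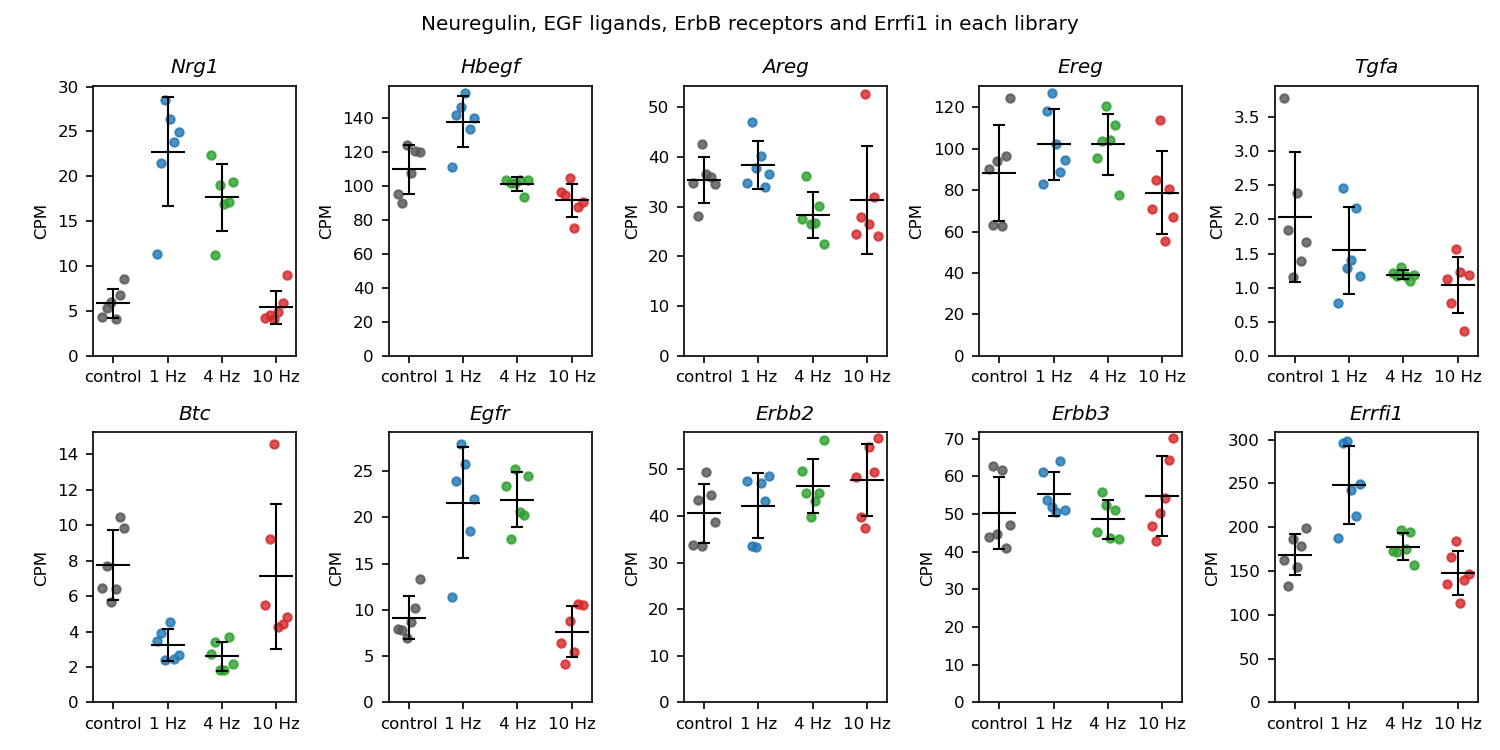
CPM of each of the 10 genes in each of the 24 libraries (points, 6 per condition), with the mean (bar) and SD (whiskers). Nrg1 and Egfr were higher and Btc lower at 1 and 4 Hz than in control, as with the Egfr medians of 22.9 and 22.0 CPM against 8.30 CPM, while Erbb2 and Erbb3 overlapped between all conditions.

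Among the receptors, Egfr (ENSMUSG00000020122, chromosome 11, 16702198 to 16868158), the receptor shared by the EGF-type ligands, rose at 1 and 4 Hz. It was 6.97, 8.30, and 13.4 CPM in the lowest, median, and highest control library, 11.4, 22.9, and 28.0 CPM at 1 Hz, 17.6, 22.0, and 25.3 CPM at 4 Hz, and 4.15, 7.61, and 10.7 CPM at 10 Hz. All 4 Hz libraries and 5 of the 6 at 1 Hz were above every control library. The remaining 1 Hz library was again replicate 1. The log2 fold change against control was 1.26 ± 0.21 (SE) at 1 Hz (edgeR adjusted p = 6.25e-05) and 1.27 ± 0.21 at 4 Hz (edgeR adjusted p = 3.24e-05), that is, 2.40 and 2.42 times the control level. These values did not differ detectably between the frequencies, with a log2 difference of 0.01 (95% interval -0.38 to 0.39) for 4 Hz against 1 Hz. At 10 Hz Egfr was -0.25 ± 0.22 from control (edgeR adjusted p = 0.569).

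Egfr therefore fell from 1 to 10 Hz by 1.51 ± 0.20 on the log2 scale (edgeR adjusted p = 5.34e-06) and from 4 to 10 Hz by 1.52 ± 0.20 (edgeR adjusted p = 3.30e-05), with all 10 Hz libraries below all libraries of the other two conditions. With the small RNA share as covariate, Egfr was 0.55 ± 0.31 from control at 1 Hz (edgeR adjusted p = 0.578) and 0.61 ± 0.29 at 4 Hz (edgeR adjusted p = 0.282). In that fit 10 Hz against 1 Hz was -0.93 ± 0.27 (edgeR adjusted p = 0.0720) and 10 Hz against 4 Hz was -0.99 ± 0.26 (edgeR adjusted p = 0.299). With the group means removed, Pearson's r between log2 CPM and log2 small RNA share over the 24 libraries was -0.57 for Egfr and -0.57 for Nrg1. It was -0.37 for Erbb3, -0.26 for Erbb2, and 0.32 for Btc. For Ereg, Tgfa, Areg, Hbegf, and Errfi1 it was 0.15, -0.10, 0.06, -0.05, and 0.01, and all are descriptions. A value of r for each condition was not computed, and single libraries do not give a direction. The library with the most small RNA had the highest Egfr of its group in control (13.4 CPM) and at 4 Hz (25.3 CPM). It had the lowest Egfr of its group at 1 Hz (11.4 CPM) and at 10 Hz (4.15 CPM).

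Erbb2 and Erbb3, the ligandless receptor and the neuregulin receptor, did not pass the test in any of the 6 comparisons. Erbb2 was 33.6 to 49.4 CPM in control, 33.3 to 48.5 CPM at 1 Hz, 39.8 to 56.3 CPM at 4 Hz, and 37.4 to 56.7 CPM at 10 Hz. Erbb3 was 41.1 to 62.9, 50.5 to 64.2, 43.3 to 55.7, and 42.9 to 70.2 CPM in the same order, and the ranges of all conditions overlapped for both genes. Against control, the 95% intervals of the log2 fold change were -0.20 to 0.31 for Erbb2 at 1 Hz, with -0.06 to 0.45 for 4 Hz. For Erbb3 the interval was -0.11 to 0.38 for 1 Hz, and that for 4 Hz was -0.30 to 0.19. The change of Egfr at these frequencies was outside the intervals of both other receptors, although the difference between genes was not itself tested.

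Among the EGF-type ligands, Btc (ENSMUSG00000082361) went the other way and fell at 1 and 4 Hz. It was 5.66, 7.07, and 10.5 CPM in the lowest, median, and highest control library, 2.38, 3.06, and 4.52 CPM at 1 Hz, and 1.81, 2.44, and 3.69 CPM at 4 Hz. No 1 or 4 Hz library reached the lowest control library. The log2 fold change was -1.28 ± 0.29 at 1 Hz (edgeR adjusted p = 0.00139) and -1.56 ± 0.29 at 4 Hz (edgeR adjusted p = 0.000153), on 14 to 51 counts per library. With the small RNA share as covariate these became -0.71 ± 0.47 (edgeR adjusted p = 0.666) and -1.001 ± 0.46 (edgeR adjusted p = 0.265).

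At 10 Hz Btc was 4.23, 5.16, and 14.6 CPM, and its log2 fold change from control was -0.09 ± 0.27 (edgeR adjusted p = 0.895). It was higher at 10 Hz than at 1 Hz by 1.19 ± 0.29 (edgeR adjusted p = 0.00204) and than at 4 Hz by 1.47 ± 0.28 (edgeR adjusted p = 0.000838). The highest 10 Hz library was replicate 3. Without it the differences were 0.83 (edgeR adjusted p = 0.0115) and 1.12 (edgeR adjusted p = 0.00340), and that from control was -0.44 (edgeR adjusted p = 0.289). Both differences between frequencies lost their call in the fit with the small RNA covariate, at 0.67 ± 0.43 (edgeR adjusted p = 0.437) and 0.97 ± 0.42 (edgeR adjusted p = 0.636). That from 1 Hz also lost it with limma on log2(TPM + 1) without a filter (adjusted p = 0.0748).

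Hbegf (ENSMUSG00000024486) differed between frequencies more than from control. It was 89.7, 114, and 124 CPM in the lowest, median, and highest control library, 111, 140, and 155 CPM at 1 Hz, 93.1, 103, and 104 CPM at 4 Hz, and 75.4, 92.5, and 104 CPM at 10 Hz. All 4 and 10 Hz libraries were below the lowest 1 Hz library. Against control, Hbegf at 1 Hz had a log2 fold change of 0.33 ± 0.09 (edgeR adjusted p = 0.00501), which passed the p but not the fold limit of 0.5 used for counting, and 0.31 ± 0.15 in the fit with the small RNA covariate (edgeR adjusted p = 0.489). From 1 to 10 Hz it fell by 0.59 ± 0.09 (edgeR adjusted p = 1.80e-05) and so was counted. In the fit with the small RNA covariate this was -0.57 ± 0.14 (edgeR adjusted p = 0.0279). For 4 Hz against 1 Hz it was -0.45 ± 0.09 (edgeR adjusted p = 0.00176), again short of the fold limit.

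Areg, the neighbour of Ereg and Btc on chromosome 5, was 28.2, 35.4, and 42.6 CPM in the lowest, median, and highest control library, 34.1, 37.2, and 47.1 CPM at 1 Hz, 22.4, 27.1, and 36.2 CPM at 4 Hz, and 24.2, 27.3, and 52.7 CPM at 10 Hz. Its log2 fold change was 0.11 ± 0.15 at 1 Hz, -0.33 ± 0.15 at 4 Hz (edgeR adjusted p = 0.0883), and -0.18 ± 0.15 at 10 Hz, none of them past the test. A single library, 10 Hz replicate 3, was far above the others of its group. Without it Areg was -0.51 for 10 Hz against 1 Hz (edgeR adjusted p = 0.00176), against -0.29 ± 0.15 with it (edgeR adjusted p = 0.140), and against control it was -0.40, which passed the adjusted p but not the fold limit (edgeR adjusted p = 0.0467). Ereg was 62.8 to 124 CPM in control and 55.7 to 127 CPM over the stimulated libraries, and no comparison passed the test. The nearest were 10 Hz against 1 Hz, at -0.37 ± 0.16 (edgeR adjusted p = 0.0671), and 10 Hz against 4 Hz, at -0.37 ± 0.16 (edgeR adjusted p = 0.0904). Without 10 Hz replicate 3, the library highest in Ereg as well, they were -0.51 (edgeR adjusted p = 0.0124) and -0.51 (edgeR adjusted p = 0.0228), and 10 Hz against control was -0.30 (edgeR adjusted p = 0.277).

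Tgfa was at the edge of detection. It was 1.16, 1.76, and 3.78 CPM in the lowest, median, and highest control library, 0.771, 1.35, and 2.47 CPM at 1 Hz, 1.09, 1.18, and 1.31 CPM at 4 Hz, and 0.368, 1.15, and 1.56 CPM at 10 Hz. The groups overlapped. Its log2 fold change was -0.77 ± 0.30 at 4 Hz (edgeR adjusted p = 0.0435) and was counted, while -0.91 ± 0.31 at 10 Hz was not (edgeR adjusted p = 0.0810). The 4 Hz call was lost in 9 of 12 fits that left out 1 library, among them those without each 4 Hz library and without control replicate 1, 2, or 4, where the adjusted p reached 0.187. It was also lost with DESeq2 (adjusted p = 0.0522), with no filter on low counts (edgeR adjusted p = 0.175), and in the fit with the small RNA covariate (edgeR adjusted p = 0.377).

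Errfi1 (ENSMUSG00000028967), the receptor inhibitor, rose at 1 Hz and was counted in no other comparison with control. It was 133, 171, and 199 CPM in the lowest, median, and highest control library, 188, 246, and 299 CPM at 1 Hz, 157, 174, and 197 CPM at 4 Hz, and 113, 144, and 184 CPM at 10 Hz. Of the 1 Hz libraries, 5 of 6 were above every control library and all were above every 10 Hz library. The log2 fold change at 1 Hz was 0.56 ± 0.12 (edgeR adjusted p = 0.000675). It came just under the fold limit, at 0.50, without 1 Hz replicate 3 (edgeR adjusted p = 0.00265), at 0.48 with scaling by total count, and at 0.47 on TPM. At 4 Hz it was 0.08 ± 0.12 and at 10 Hz -0.19 ± 0.12 from control, with adjusted p above the limit. The difference between frequencies was tested directly. Errfi1 fell from 1 to 10 Hz by 0.75 ± 0.12 (edgeR adjusted p = 2.79e-05), and by 0.77 ± 0.18 in the fit with the small RNA covariate (edgeR adjusted p = 0.0256). It was -0.48 ± 0.12 for 4 Hz against 1 Hz (edgeR adjusted p = 0.00772), short of the fold limit. With the covariate the difference of 1 Hz from control was 0.58 ± 0.20, of the same size but with a larger error (edgeR adjusted p = 0.282).

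**Figure D3:**
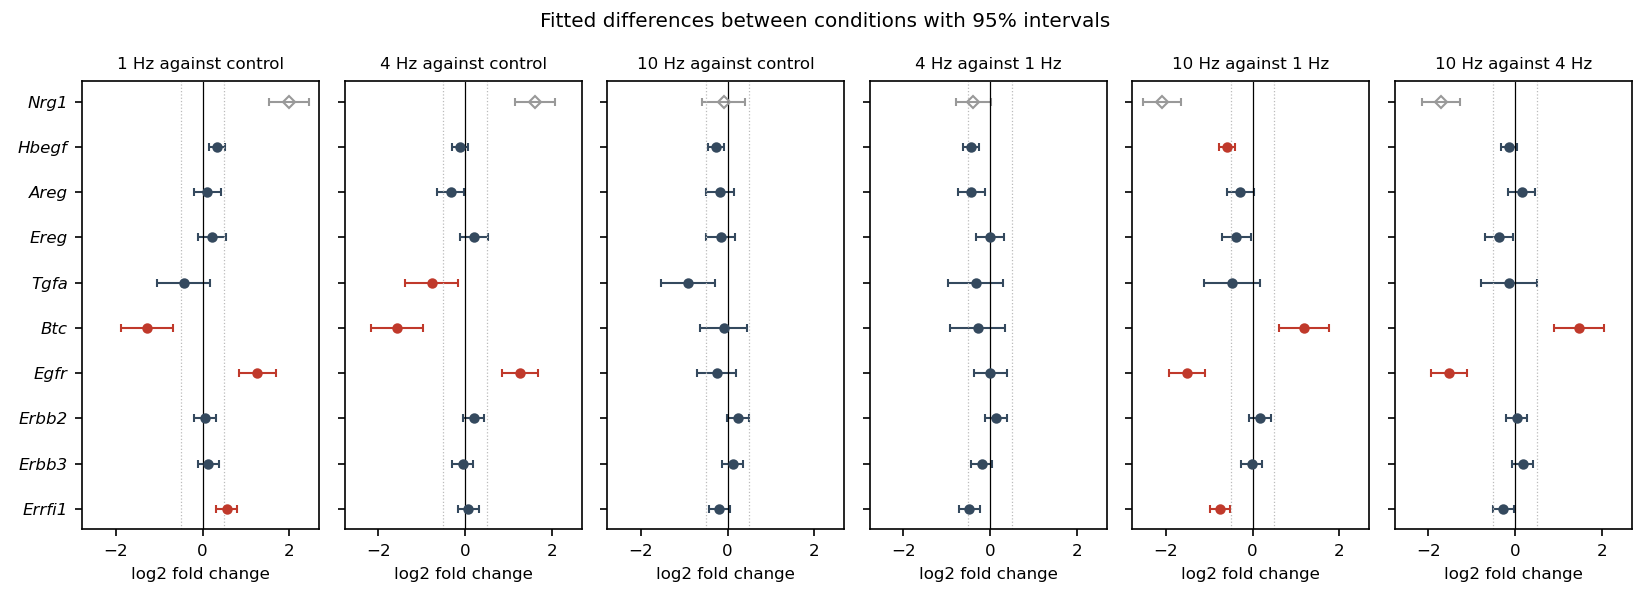
Log2 fold changes of the 10 genes in the 6 comparisons with 95% intervals from edgeR. Red points were counted (adjusted p under 0.05, and beyond the dotted lines at 0.5), dark points were not, and Nrg1 (open diamond) was not tested. Egfr was counted at 1.26 and 1.27 for 1 and 4 Hz and at -1.51 and -1.52 for 10 Hz against them.

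A gene was counted where its adjusted p was under 0.05 and its log2 fold change beyond 0.5 either way. Of the 9 tested genes, 3 changed at 1 Hz (Egfr and Errfi1 higher, Btc lower), where 18.3% of the 13318 tested genes were counted, 9.34% higher and 8.99% lower. At 4 Hz 3 changed (Egfr higher, Btc and Tgfa lower), where 20.1% of all genes were counted, 10.5% higher and 9.61% lower. At 10 Hz 0 of 9 were counted by edgeR, DESeq2, or limma, and 2 (Hbegf and Tgfa) had an unadjusted edgeR p under 0.05, where 1.86% of all genes were counted (1.24% higher and 0.623% lower). The 3 comparisons share the control libraries. Scaling by total count moved the split of all genes from 1244 higher and 1197 lower to 942 and 1595 for 1 Hz, from 1396 and 1280 to 1012 and 1821 for 4 Hz, and from 709 and 751 to 933 and 591 for 10 Hz against 4 Hz. The median log2 fold change of the 9 genes was 0.13 at 1 Hz, -0.05 at 4 Hz, and -0.18 at 10 Hz, against -0.01 in each of the 3 comparisons over all genes.

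Between frequencies, 0 of 9 were counted by edgeR or DESeq2 for 4 Hz against 1 Hz, where 3% of all genes were counted (1.59% higher and 1.4% lower). There Hbegf and Errfi1 passed the adjusted p, 3 genes (with Areg) had an unadjusted edgeR p under 0.05, and limma on log2(TPM + 1) counted 3. The split over all genes was 212 higher and 187 lower by edgeR and 56 higher and 404 lower by limma on log2(TPM + 1). For 10 Hz against 1 Hz 4 were counted, with Hbegf, Egfr, and Errfi1 lower and Btc higher, against 17.9% of all genes (8.49% lower and 9.45% higher). For 10 Hz against 4 Hz 2 were counted, with Egfr lower and Btc higher, against 11% of all genes (5.64% lower and 5.32% higher). The median log2 fold change of the 9 genes was -0.29, -0.37, and -0.14 in these comparisons, against -0.0049, 0.01, and 0.01 over all genes. The share counted at 1 and 4 Hz, 33.3% of the 9 genes, rests on 3 genes each and is not read as a result about the family as a whole.

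**Figure D4:**
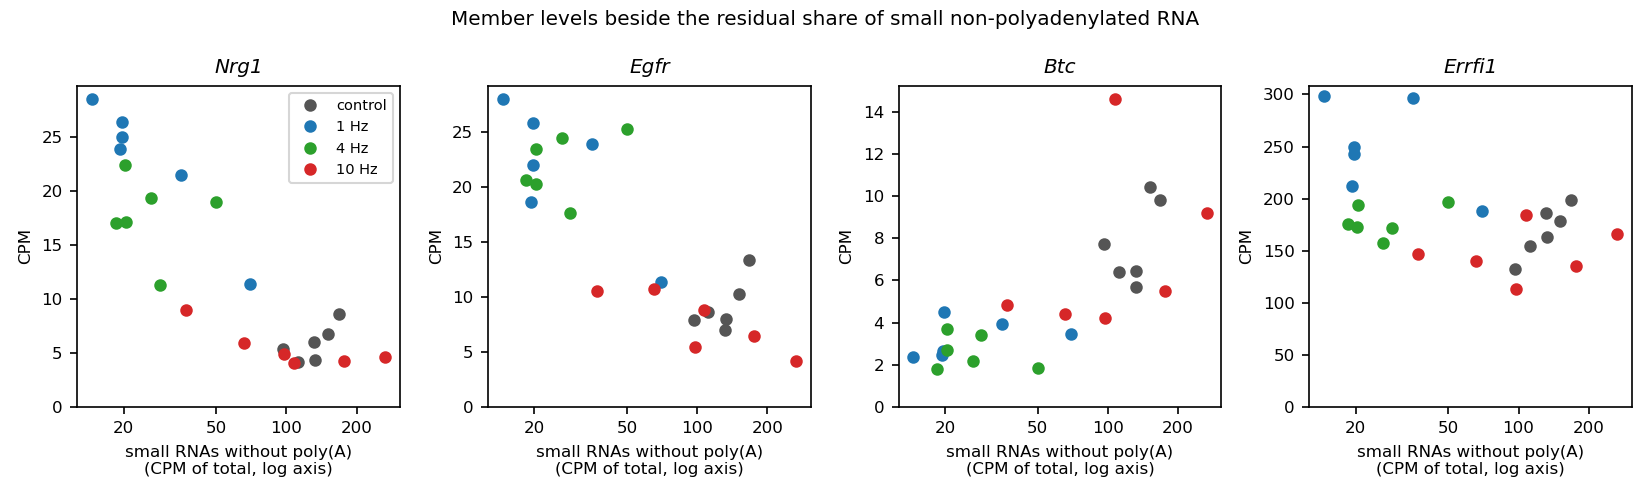
CPM of Nrg1, Egfr, Btc, and Errfi1 in each library against the summed share of 25 small RNAs without poly(A) tail (CPM of the total, log axis), colored by condition. The control libraries, at 96.6 to 168 CPM, and the 4 Hz libraries, at 18.5 to 50.0 CPM, do not overlap on the horizontal axis. Within 10 Hz the library with the least small RNA, at 37.1 CPM, had the highest Nrg1, at 8.96 CPM. Within control the library with the most small RNA, at 168 CPM, had the highest Nrg1, at 8.58 CPM.

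Of 32 further genes listed for the pathway, 28 could be tested. At 1 Hz 2 of them (7.14%) were counted, below the 18.3% of all genes. These were Adam19 (a protease that cuts neuregulin), which rose by 0.62 ± 0.14 (edgeR adjusted p = 0.00107) and Egr3 (a transcription factor induced by neuregulin in muscle spindles), which rose by 0.69 ± 0.13 (edgeR adjusted p = 0.000183). Adam19 was 93.7 to 126 CPM in control and 155 to 185 CPM at 1 Hz, and Egr3 was 16.3 to 31.4 CPM in control and 33.0 to 47.4 CPM at 1 Hz, so that neither gene's groups overlapped. At 4 Hz 9 (32.1%) were counted, 3 higher and 6 lower, against 20.1% of all genes (10.5% higher and 9.61% lower). The 3 with the largest change were Egf, a ligand of Egfr, Etv4, an ETS transcription factor downstream of growth factor receptors, and Lrig1, a membrane protein that promotes receptor degradation. Egf rose by 1.26 ± 0.31 (edgeR adjusted p = 0.00208), from 1.14 to 3.35 CPM in control to 2.23 to 5.28 CPM, with overlapping groups. This rests on low counts, 5 to 16 per control library and 21 to 39 per 4 Hz library. Etv4 fell by 1.08 ± 0.25 (edgeR adjusted p = 0.00121), from 9.46 to 17.2 CPM to 4.24 to 7.96 CPM. Lrig1 fell by 0.72 ± 0.12, from 22.1 to 33.9 CPM to 16.8 to 20.0 CPM.

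The other 6 counted at 4 Hz were Adam19 and Gabpb1, which were higher, and Adam10, Adam17, Lrig3, and Sh3kbp1, which were lower. At 1 Hz some of them passed the adjusted p in the same direction but not the fold limit. These were Gabpb1 (0.47, edgeR adjusted p = 0.00814), Adam10 (-0.38, edgeR adjusted p = 0.0317), and Adam17 (-0.30, edgeR adjusted p = 0.0244). Lrig3 (edgeR adjusted p = 0.241) and Sh3kbp1 (edgeR adjusted p = 0.161) did not pass it. Adam10 and Adam17 are the proteases that free most EGF-type ligands, and Lrig3 and Sh3kbp1 act on receptor levels and uptake. At 10 Hz against control 0 of 28 were counted by edgeR or DESeq2 and 1 by limma on TPM, and 6 had an unadjusted edgeR p under 0.05. By role, 3 of 7 ligand release genes, 3 of 8 receptor brakes, and 2 of 5 nuclear targets were counted at 4 Hz, numbers too small to set any role apart from the 20.1% of all genes. Of the 6 adaptors, such as Grb2 and Sos1, 0 were counted by edgeR, DESeq2, or limma in any of the 6 comparisons. Over all genes edgeR counted 1.86% to 20.1% in these comparisons, and 6 genes are again too few to set the role apart. In each, 1 to 2 had an unadjusted edgeR p under 0.05. Ptpn11 at 1 Hz (0.15, edgeR adjusted p = 0.0385) passed the adjusted p against control but not the fold limit. The same held for Sos2 at 4 Hz (-0.27, edgeR adjusted p = 0.0455). The median of the 28 log2 fold changes was -0.03 at 1 Hz, -0.12 at 4 Hz, and -0.13 at 10 Hz, against -0.01 over all genes. With the small RNA share as covariate, 0 of the 28 were counted by edgeR at 1 or 4 Hz against control or for 10 Hz against 1 or 4 Hz, with 1, 232, 182, and 0 of all genes counted in these comparisons.

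Between frequencies, Rhbdf2, a rhomboid-like protein that carries Adam17 to the cell surface, was lower at 4 Hz than at 1 Hz by 0.65 ± 0.18 on the log2 scale (edgeR adjusted p = 0.0201), as was Lrig1 (-0.57 ± 0.12, edgeR adjusted p = 0.00251). Over all genes, 3% were counted in this comparison. For 10 Hz against 1 Hz 4 of 28 genes (14.3%, against 17.9% of all genes) were counted, with log2 differences of -0.76 for Rhbdf2, -0.74 for Egr3, -0.70 for Cblb (a ubiquitin ligase of receptor tyrosine kinases), and -0.50 for Etv5. Egr3 was thus counted as higher at 1 Hz than in control and than at 10 Hz, as were Egfr and Errfi1. None of these genes was counted at 1 Hz against control in the fit with the small RNA covariate. Nrg1 was chosen for its rise at 1 and 4 Hz, so its likeness to them was set by that choice. A link between Nrg1 and Egr3 was not tested. Over all genes 9.34% were counted as higher at 1 Hz than in control, and 8.49% as lower at 10 Hz than at 1 Hz. At 4 Hz Egr3 was 0.36 ± 0.13 from control (edgeR adjusted p = 0.0224), which passed the adjusted p but not the fold limit. For 10 Hz against 4 Hz 2 of 28 were counted (7.14%, against 11% of all genes). Etv4 was higher by 0.95 ± 0.24 (edgeR adjusted p = 0.00689) and Egf fell by 1.08 ± 0.29 (edgeR adjusted p = 0.00891).

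**Figure D5:**
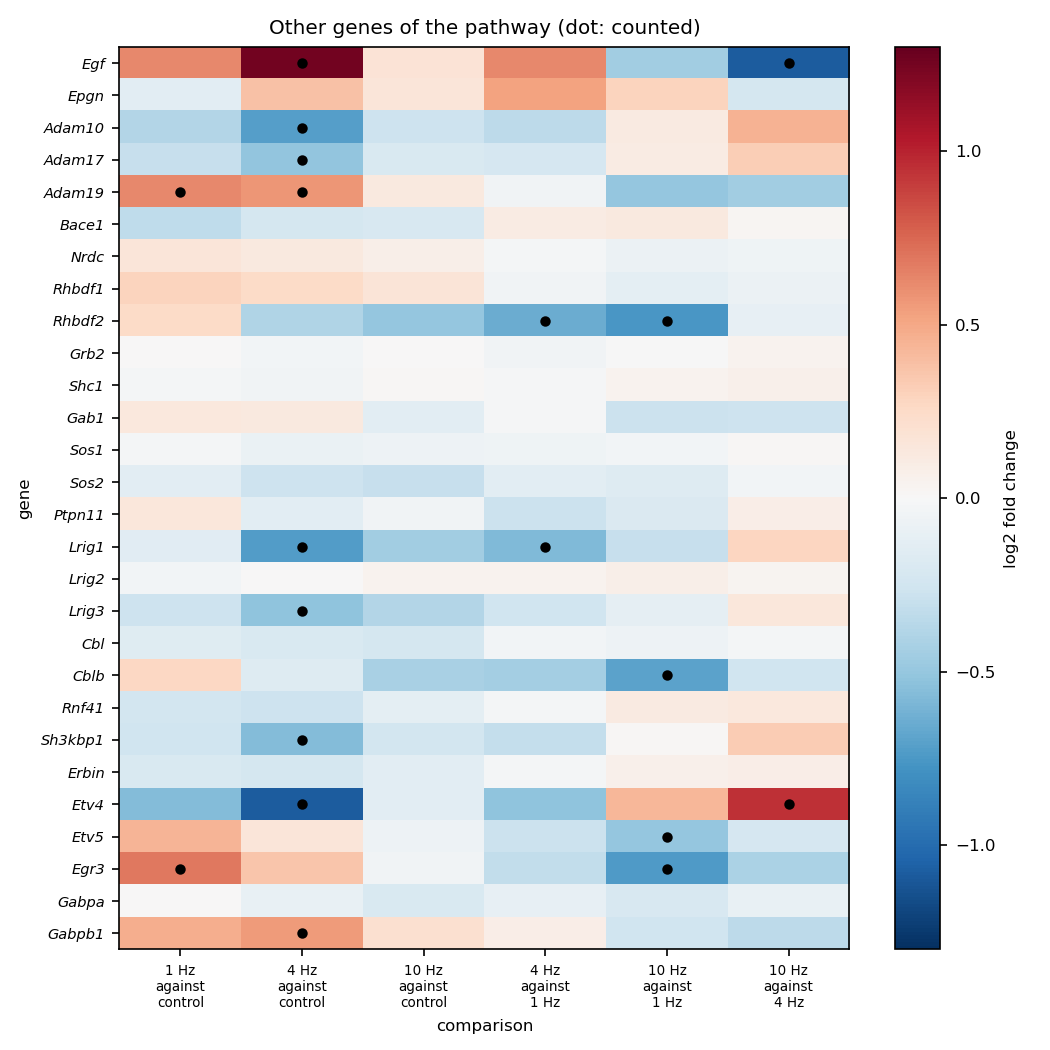
Log2 fold changes of the 28 tested further genes of the pathway (rows) in the 6 comparisons (columns), with red for higher and blue for lower in the condition named first. Dots mark genes that were counted, of which there were 2 for 1 Hz, 9 for 4 Hz, and 0 for 10 Hz against control.

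The genes whose log2 CPM over the 24 libraries was most like that of Nrg1, among 9066 genes with a mean of at least 10 CPM, were App (Pearson's r = 0.97, the amyloid precursor protein), Atp2a2 (0.97, a calcium pump of the sarcoplasmic reticulum), Srl (0.96, a calcium-binding protein of the same compartment), Igfbp5 (0.96, which binds insulin-like growth factors), and Fto (0.96, an RNA demethylase). Mean levels of Atp2a2 were 746 CPM in control, 1118 CPM at 1 Hz, 1033 CPM at 4 Hz, and 743 CPM at 10 Hz. The genes most opposite were Dnajb14 (r = -0.95, an endoplasmic reticulum chaperone partner), Mcts2 (-0.95, whose reads could be split with its near copy Mcts1), and Snhg7 (-0.94, a small nucleolar RNA host gene). Of the family, Egfr ranked 27th with r = 0.93, and r was 0.73 once the group means were removed. For Errfi1 (ranked 1017th) r was 0.71 and for Btc -0.76, and these were 0.35 and -0.21 once the group means were removed. For Hbegf and Ereg r was 0.60 and 0.52, or 0.42 and 0.22 with the means removed. For Areg, Erbb2, Erbb3, and Tgfa it was 0.00, 0.01, 0.01, and -0.02. These points share their libraries, their conditions, and the differences in small RNA share, so the values are descriptions.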

How the data were processed

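RNA-seq libraries of 24 muscle tissues were analysed (6 per condition, grouped and numbered by the sample titles). Poly(A) selection and directional library preparation were done by the authors, who quantified paired-end reads with the nf-core/rnaseq pipeline (STAR and Salmon) on GRCm39, with an annotation release that is not given in the sources used here. Reads were also mapped by the authors with BWA-MEM, and quality metrics were computed with bedtools (0.7.12-r1039 and 2.25.0 in the submitters' processing notes). The deposited values were Salmon expected counts per gene (not normalized) and, in a second table, TPM scaled by the authors to a fixed sum per library. The study describes the 6 libraries of a condition as biological replicates, grown in wells of 24-well plates.

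Before testing, expected counts were rounded to integers. Genes were filtered with filterByExpr (13318 genes kept, 99.8% of counts), scaled by TMM, and tested with edgeR's quasi-likelihood test (edgeR 4.0.16, R 4.3.3) by a single model of the 24 libraries in which condition was the factor, over 6 contrasts. The Benjamini-Hochberg adjustment covered all tested genes. Genes were counted when the adjusted p was under 0.05 and the log2 fold change beyond 0.5 either way. CPM use TMM-scaled library sizes, except for the small RNA share, which is of the raw total. Counts of 4.09 to 15.2 M per library set the counting error, and limits at 0 cover counting error only. The fits were tested on simulated data.

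The 10 genes and all gene lists were chosen with earlier results of these data known. The genes named beside the 10 are up to 3 pathway genes with the largest absolute fold change among those counted per comparison (the others counted are named so that each count is accounted for, chosen after their values were seen) and the 5 most and 3 least similar to Nrg1 by Pearson's r. Nrdc was matched by identifier, and a second row named Nrg1 held no counts. Gene positions are from GENCODE M39 (GRCm39) and start regions from RefSeq (GRCm38.p6). Alternatives were DESeq2 1.42.0, its size factors alone, total count scaling, no filter or a mean of at least 5 CPM, limma 3.58.1 on log2(TPM + 1) and log2(TPM + 0.1), a fit of just the 12 libraries compared, a block for replicate number, counting by adjusted p alone, the log2 small RNA share as a covariate, and leaving out each library. Thinning of counts to the smallest library was added after the data were seen, as were the within-group correlations and the ratios of counts to TPM. No 2 libraries of a group agreed within sampling noise.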

Additional observations from a re-analysis of the deposited data

Results flagged for a closer look

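In 3 of the 40 sets of 6 libraries (10 genes in 4 conditions), the highest or lowest library stood further from the rest than Dixon's 95% critical value of 0.625 allows. Chance gives such a gap in about 1 of 20 sets, that is, in a few of these. Nrg1 in 10 Hz replicate 6 was 8.96 CPM, with the next library at 5.89 CPM and a ratio of gap to range of 0.627, in the library with the least small RNA of its group (37.1 CPM). In control the highest Nrg1, in replicate 6, was in the library with the most small RNA (168 CPM). Hbegf in 4 Hz replicate 5 was 93.1 CPM, below the next at 101 CPM (ratio 0.781). Areg in 10 Hz replicate 3 was 52.7 CPM, above the next at 32.0 CPM (ratio 0.724). The same library had the highest Ereg and Btc of its group, at 114 and 14.6 CPM. The values without it are given with each of the 3 genes.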

How the results depend on the processing

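The counted changes of Egfr and Btc at 1 and 4 Hz, and of Hbegf, Egfr, and Errfi1 for 10 Hz against 1 Hz, kept their direction and their call under each scaling, filter, tool, and leave-out setting. The small RNA share as covariate changed most counts. With it 0 of 9 family genes were counted at 1 Hz and at 4 Hz, 2 for 10 Hz against 1 Hz, and 0 for 10 Hz against 4 Hz, and 0 of 28 pathway genes were counted at 1 Hz, at 4 Hz, for 10 Hz against 1 Hz, and for 10 Hz against 4 Hz. Over all 13318 genes this fit counted 1, 232, 182, and 0, so these zeros are not particular to the family. Standard errors were larger in this fit (0.31 against 0.21 for Egfr at 1 Hz), and the parts of the share and of the stimulation cannot be told apart.

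For 4 Hz against 1 Hz, limma counted 3 family genes on log2(TPM + 1), 3 on log2(TPM + 0.1), and 3 without a filter, an adjusted p alone counted 2, and leaving out a library counted 0 to 1. For the pathway list, an adjusted p alone counted 10 genes at 1 Hz, 2 at 10 Hz, 4 for 4 Hz against 1 Hz, 8 for 10 Hz against 1 Hz, and 7 for 10 Hz against 4 Hz. Limma counted 1 at 10 Hz in each of its 3 versions, and for 10 Hz against 4 Hz it counted 1, 1, and 0. Thinning counted 1 for 4 Hz against 1 Hz, and a mean of at least 5 CPM counted 1 for 10 Hz against 4 Hz. Leaving out a library gave 2 to 4 at 1 Hz, 0 to 1 at 10 Hz, 1 to 2 for 4 Hz against 1 Hz, and 2 to 4 for 10 Hz against 4 Hz. Where not said otherwise, the cause was not tested.

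Values that changed sign were near 0 and not counted. Nrg1 at 10 Hz against control, given without a test, was -0.09 and ran from -0.30 to 0.042 when a library was left out. Ereg for 4 Hz against 1 Hz (-0.0015) became 0.0047 with DESeq2 size factors, 0.00093 with no filter, 0.023 at 5 CPM, 0.0057 with DESeq2, 0.011 with the 12 libraries compared, 0.0064 with the replicate block, and 0.040 thinned. Egfr for 4 Hz against 1 Hz became -0.0079 with total count scaling and -0.0122, -0.0100, and -0.0122 in the limma versions. Erbb2 at 1 Hz became -0.0229 with total count scaling, -0.0111, -0.0121, and -0.0111 in the limma versions, and -0.13 with the covariate, and -0.0291 for 10 Hz against 4 Hz when thinned. Erbb3 became -0.13 at 1 Hz with the covariate and 0.046 at 4 Hz when thinned, and for 10 Hz against 1 Hz it became 0.024 with total count scaling, 0.018 at 5 CPM, and 0.20 with the covariate. Errfi1 at 4 Hz became -0.016 with total count scaling and -0.10 in each limma version. Leaving out a library gave -0.067 to 0.24 for Areg and -0.019 to 0.10 for Erbb2 for 10 Hz against 4 Hz, -0.054 to 0.074 for Ereg and -0.11 to 0.10 for Egfr for 4 Hz against 1 Hz, -0.44 to 0.019 for Btc at 10 Hz, -0.10 to 0.031 for Erbb3 at 4 Hz, and -0.10 to 0.042 for Erbb3 for 10 Hz against 1 Hz.

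Deviations from the group means correlated at -0.18 to 0.36 between same-numbered libraries. Differently numbered libraries were not compared, so whether the numbers mark pairs was not tested. Under the replicate block, Tgfa at 4 Hz lost its call (edgeR adjusted p = 0.0720). Total count scaling shifted the median of all genes at 4 Hz to -0.11 and log2(TPM + 1) to -0.16, and on TPM 677 genes were higher and 2057 lower there. Depth limits Tgfa most, at 2 to 20 counts per library.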
